A study of Mus musculus with 2 samples.

Results

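Head-to-head gene pairs are neighbours on opposite strands that are transcribed away from a shared stretch of DNA, the minus-strand gene lying to the left and the plus-strand gene to the right. Among protein-coding genes with RefSeq NM_ transcripts on mouse build mm10, 806 such pairs were found with starts 1 to 1000 bp apart and spans that did not overlap, the start of a gene being that of its most upstream NM_ transcript. They held 1604 of 20806 NM_ genes (7.71%), 8 of which stood in 2 pairs, and no measured level entered their choice. The level of a gene is the sum of the deposited FPKM (fragments per kilobase of transcript, scaled to the mapped fragments of the library) of its NM_ transcripts in a library.

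Poly(A)-selected messages were sequenced from SPCs, spermatogonial progenitor cells, which sustain spermatogenesis and here came from C57BL/6 testes at 8 days. The groups were wild-type and Dnmt3l knockout, with 1 library each. Dnmt3l is a gene that encodes a partner of the de novo DNA methyltransferases that has no catalytic activity of its own. The labels give neither the design of the allele nor whether animals were pooled. With 1 library per genotype no difference between them has a replicate check, and no test or p-value is given. Dnmt3l, which was in no pair, stood at 0.921 FPKM (bounds 0.497 to 1.44) in wild-type cells and was listed at 0 in the knockout.

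A promoter that serves both strands usually lies in a CpG island, a stretch of DNA rich in CG dinucleotides that stays free of methylation in most cells, and usually has no TATA box. RNA polymerase II then starts in both directions from separate start sites, and both products are messenger RNAs. Genes of DNA repair, mitochondria and the histones are textbook examples, and methylated CpG-rich promoters are typically silent.

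The stretch between the starts could be read from the RefSeq promoter windows (assembly GRCm38.p6, the build of the files) for 395 of the 487 pairs with starts at most 250 bp apart. Shown here are 8 pairs that the results come back to, each as the whole stretch between the starts, read 5′ to 3′ on the plus strand, so that the minus-strand gene begins just left of the first base and the plus-strand gene just right of the last. Capitals mark matches, on either strand, to short motifs of known factors: the TATA box (TATAAA), the CCAAT box bound by NF-Y (CCAAT), the GC box bound by Sp1 (GGGCGG), the ETS motif (CCGGAAGT), the NRF1 motif (GCATGCGC) and the cyclic AMP response element, CRE (TGACGTCA). The 8 stretches were chr1:55087933-55088147 (Hspd1/Hspe1), chr6:124712179-124712288 (Emg1/Phb2), chr17:46680931-46681136 (Klhdc3/Mea1), chr7:28741782-28741967 (Mrps12/Sars2), chr11:101551956-101552106 (Brca1/Nbr1), chr13:23683960-23684198 (H2ac6/H2bc4), chr6:48841375-48841482 (Tmem176b/Tmem176a) and chr11:62281396-62281472 (Zswim7/Ttc19).
Hspd1/Hspe1: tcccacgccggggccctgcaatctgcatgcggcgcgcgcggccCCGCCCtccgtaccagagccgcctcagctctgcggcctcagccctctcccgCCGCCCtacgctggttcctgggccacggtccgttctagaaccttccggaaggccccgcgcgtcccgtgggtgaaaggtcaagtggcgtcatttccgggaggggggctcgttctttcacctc
Emg1/Phb2: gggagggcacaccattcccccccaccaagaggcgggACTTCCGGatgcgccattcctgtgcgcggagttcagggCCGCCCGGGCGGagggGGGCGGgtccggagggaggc
Klhdc3/Mea1: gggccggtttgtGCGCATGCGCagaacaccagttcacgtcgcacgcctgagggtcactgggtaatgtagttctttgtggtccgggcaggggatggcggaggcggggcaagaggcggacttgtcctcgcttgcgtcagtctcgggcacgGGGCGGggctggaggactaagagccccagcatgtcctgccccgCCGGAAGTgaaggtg
Mrps12/Sars2: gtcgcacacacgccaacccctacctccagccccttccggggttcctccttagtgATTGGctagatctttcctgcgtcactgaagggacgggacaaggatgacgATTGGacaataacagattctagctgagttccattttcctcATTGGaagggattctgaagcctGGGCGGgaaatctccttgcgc
Brca1/Nbr1: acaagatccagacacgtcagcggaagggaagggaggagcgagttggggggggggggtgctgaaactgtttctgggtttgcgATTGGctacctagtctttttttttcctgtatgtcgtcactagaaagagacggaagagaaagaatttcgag
H2ac6/H2bc4: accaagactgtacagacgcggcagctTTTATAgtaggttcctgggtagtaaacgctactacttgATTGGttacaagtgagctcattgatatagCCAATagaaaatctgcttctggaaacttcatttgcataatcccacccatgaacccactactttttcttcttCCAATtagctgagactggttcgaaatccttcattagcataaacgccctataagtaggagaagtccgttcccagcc
Tmem176b/Tmem176a: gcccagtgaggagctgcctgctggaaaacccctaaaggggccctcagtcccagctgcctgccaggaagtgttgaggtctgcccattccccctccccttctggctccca
Zswim7/Ttc19: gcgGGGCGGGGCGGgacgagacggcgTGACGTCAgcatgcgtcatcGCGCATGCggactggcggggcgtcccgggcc

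The stretch of Hspd1/Hspe1, the chaperonin pair of the mitochondrial matrix, was 70.2% G and C, with 24 CG dinucleotides in 215 bases and 2 GC boxes. That of Klhdc3/Mea1 held 2 overlapping NRF1 matches, a GC box and an ETS motif, and that of Emg1/Phb2 held an ETS motif and 3 GC boxes. Mrps12/Sars2 had 3 CCAAT boxes and a GC box, and Brca1/Nbr1 had 1 CCAAT box in a stretch of 50.3% G and C. H2ac6/H2bc4, a pair of an H2A and an H2B gene, had a TATA box and 3 CCAAT boxes in a stretch of 42.7% G and C. The 108 bases between Tmem176b and Tmem176a held no CG dinucleotide and none of the 10 motifs searched. Zswim7/Ttc19 had 2 overlapping GC boxes, a CRE and an NRF1 match within 77 bases.

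Over all pairs the promoters were rich in CG dinucleotides. Among 1272 genes of pairs with a 300-base RefSeq window (250 bases before the start to 50 after) whose start lay within 100 bases of the start in the files, the median ratio of observed to expected CG dinucleotides was 0.865 (quartiles 0.735 and 0.978), against 0.614 over 15091 NM_ genes and 0.568 over those in no pair. The ratio exceeded 0.6 in 90.1% of the paired genes and in 51.2% of all NM_ genes. Among genes at 1 FPKM or more in at least 1 library the medians were nearer, 0.875 for paired genes and 0.763 for genes in no pair. The windows of partners share much of their DNA, so the genes of a pair are not separate observations.

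TATA boxes were rarer in pairs than over all NM_ genes, and several other motifs were commoner. A TATA box was found in 4.95% of paired windows and in 13.4% of all windows. The ETS motif was found in 15.6% against 5.82%, the GC box in 69.4% against 49.1%, the CRE in 5.03% against 2.53%, and the motif of YY1 (AAGATGGC) in 8.25% against 3.41%. CCAAT boxes were found in 44.3% against 39.2%, the NRF1 motif in 5.90% against 3.90% and the E-box (CACGTG) in 10.2% against 8.37%. Among genes at 1 FPKM or more the ETS motif stood at 15.8% of paired windows and 8.09% of windows of genes in no pair. In the same order the TATA box stood at 4.01% and 7.30%, and the NRF1 motif at 6.38% and 5.93%. The YY1 motif stood at 8.83% and 4.24%, the CRE at 5.19% and 3.19%, and the CCAAT box at 44.7% and 39.4%. The GC box was close, at 71.3% and 66.6%, and the E-box was not commoner in pairs, at 10.7% and 10.8%.

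The CCAAT box depended on the distance between the starts. The 125 stretches between starts 51 to 100 bp apart held 2.13 CCAAT matches per 1000 bases, close to the 2.30 in the 250 bases before the starts of expressed genes in no pair. Between starts over 100 and up to 150 bp apart there were 5.38 per 1000 bases, up to 200 bp there were 6.11, and up to 250 bp there were 4.76. ETS matches numbered 1.12, 0.927, 0.339 and 0.836 per 1000 bases in these 4 distance classes (n = 125, 88, 70 and 54 stretches). In the 250 bases before the starts of expressed genes in no pair there were 0.239. ETS matches were denser near the start: over all genes in no pair, the last 73, 123, 165 and 222 bases held 0.323, 0.233, 0.191 and 0.154. These lengths are near the medians of the 4 classes. CCAAT matches there numbered 2.38, 2.46, 2.30 and 2.11 per 1000 bases. The YY1 motif was rare between the starts, in 0.761% of stretches, although it was found in 8.25% of the windows, which reach past the starts.

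**Figure D1:**
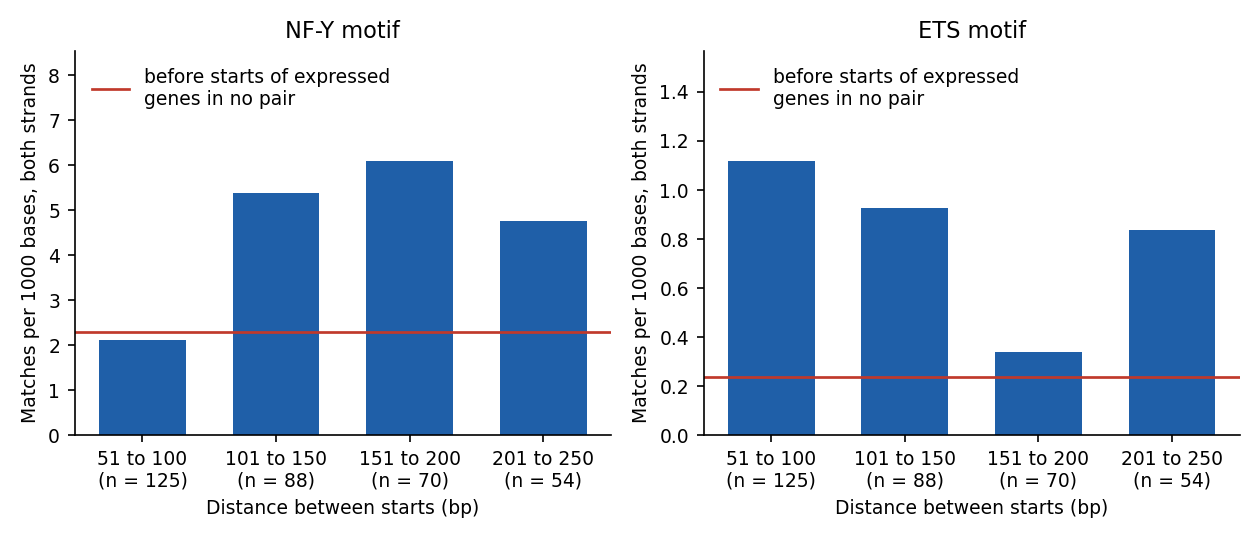
Bars show matches per 1000 bases of the stretch between both starts, by the distance between the starts (n, stretches), for the NF-Y motif (the CCAAT box) and the ETS motif on both strands. The red line is the same density in the 250 bases before the starts of expressed genes in no pair, 2.30 and 0.239 per 1000 bases. CCAAT matches were denser than the line over 100 bp, at 5.38, 6.11 and 4.76, but not at 51 to 100 bp.

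The pairs were compact. The median distance between starts was 187 bp (quartiles 95.3 and 338 bp), 210 pairs were at most 100 bp apart, 212 over 100 and up to 200 bp, 136 up to 300 bp, 129 up to 500 bp and 119 up to 1000 bp. The closest starts were those of Capza1, an actin-capping protein, and St7l at 1 bp, of the basement membrane collagens Col4a1 and Col4a2 at 3 bp, and of Tmem186 and the phosphomannomutase Pmm2 at 6 bp. At the outer edge, Sgsm2/Tsr1 and Zfyve26/Rad51b at 1000 bp were inside, and Serpina7/4930513O06Rik at 1007 bp was outside. Pairs lay on 20 chromosomes and took from 3.83% of the NM_ genes of the X chromosome to 11.9% of those of chromosome 13, which carries clusters of histone genes.

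**Figure D2:**
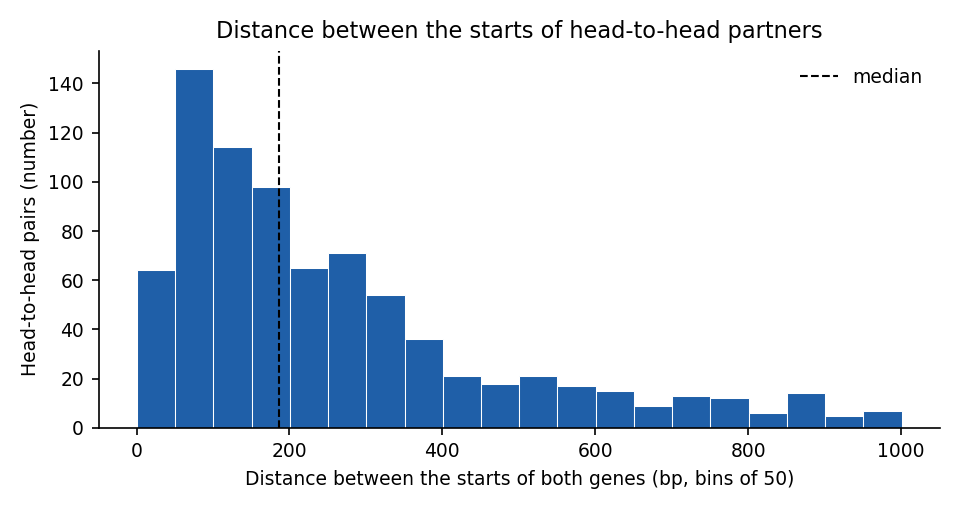
Number of the 806 pairs by the distance between the starts of both genes, in bins of 50 bp, with the median of 187 bp as a dashed line. The fullest bin is 51 to 100 bp with 146 pairs.

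Genes of pairs were more often expressed than other genes. In the wild-type library 80.0% of the paired genes were at 1 FPKM or more, against 53.0% of all NM_ genes, and in the knockout library 80.4% against 52.9%. Their median level was 9.95 FPKM (wild-type) and 10.1 FPKM (knockout), against 1.54 and 1.45 FPKM over all NM_ genes. Paired genes held 14.99% and 14.7% of the summed FPKM. Of the 1604 genes, 225 were listed at 0 (wild-type) and 228 (knockout).

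Both partners were at 1 FPKM or more in 523 of 806 pairs (64.9%) in the wild-type library and in 528 (65.5%) in the knockout. The same was so of 304 and 319 of 608 tail-to-tail neighbours with ends 1 to 1000 bp apart, of 46.1% and 47.0% of 479 neighbours on the same strand, and of 43.8% and 42.8% of 794 head-to-head neighbours over 1000 and up to 10000 bp apart. The share was close to the product of the shares of each side. In the wild-type library 79.4% of the minus-strand and 80.4% of the plus-strand genes were at 1 FPKM or more, and the product of these shares was 63.8%, against the 64.9% observed. In the head-to-head neighbours over 1000 and up to 10000 bp apart the product was 38.7% and the observed share 43.8%. With transcript models that Cufflinks assembled from the reads added to the genes whose exons they share, both partners reached 1 FPKM in 75.6% of the wild-type and 78.8% of the knockout pairs. By distance, the share in the wild-type library was 66.7% at 1 to 100 bp, 70.8% over 100 and up to 200 bp and 55.5% over 500 bp.

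**Figure D3:**
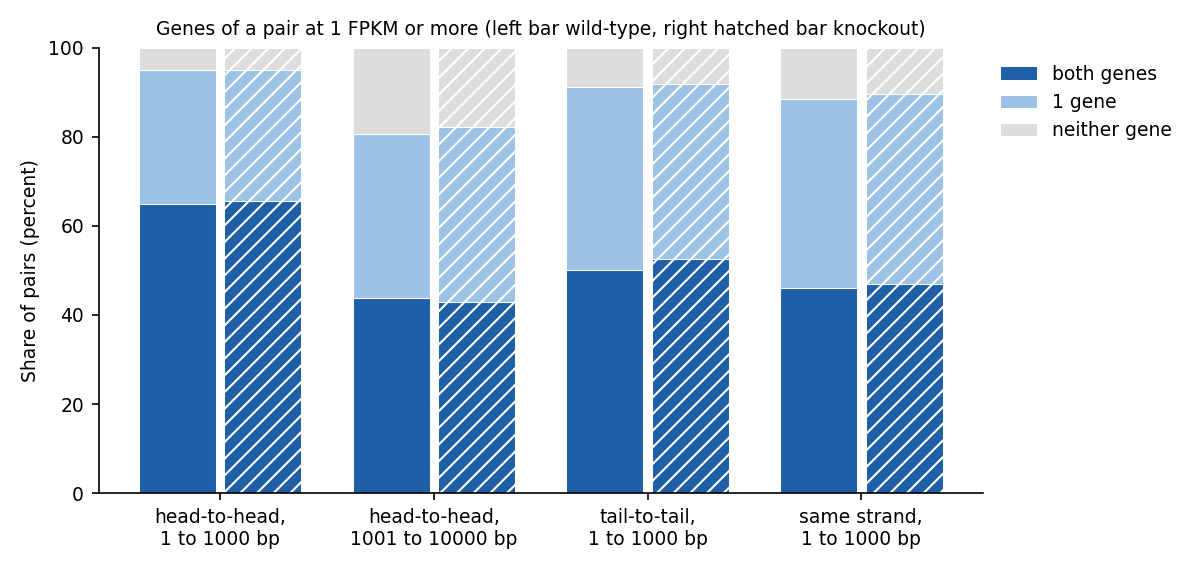
Share of pairs with both, 1 or neither gene at 1 FPKM or more, for head-to-head pairs and for 3 other classes of neighbours (left bar, wild-type library; right hatched bar, Dnmt3l knockout library). Head-to-head pairs 1 to 1000 bp apart had both genes at that level in 64.9% and 65.5%, the other classes in 42.8% to 52.5%.

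The levels of partners were only weakly related. Across all 806 pairs Spearman's rho between the log2(FPKM + 1) levels of partners was 0.06 (wild-type) and 0.11 (knockout), and Pearson's r was 0.05 and 0.08. Across pairs with both genes at 1 FPKM or more, a choice added after seeing the data, rho was 0.23 (n = 523) and 0.25 (n = 528), against 0.10 and 0.08 in tail-to-tail neighbours 0.11 and 0.21 in same-strand neighbours, and 0.08 and 0.05 in more distant head-to-head neighbours. Over all pairs of each class the order was another, with rho of 0.18 and 0.16 in the more distant head-to-head neighbours. The points of a library share its depth and the transcript assembly, so these values are descriptions. Of 765 pairs with a gene at 1 FPKM or more in the wild-type library, 262 (34.2%) had partners at least 10-fold apart, and in the knockout library this was so in 277 of 766 (36.2%). The order of partners was mostly kept: the same partner was higher in both libraries in 669 of 779 pairs (85.9%), and in 188 of the 191 pairs that were at least 10-fold apart in both. Only 108 of the 456 pairs with both genes at 1 FPKM or more in both libraries had partners within 2-fold of each other in both.

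**Figure D4:**
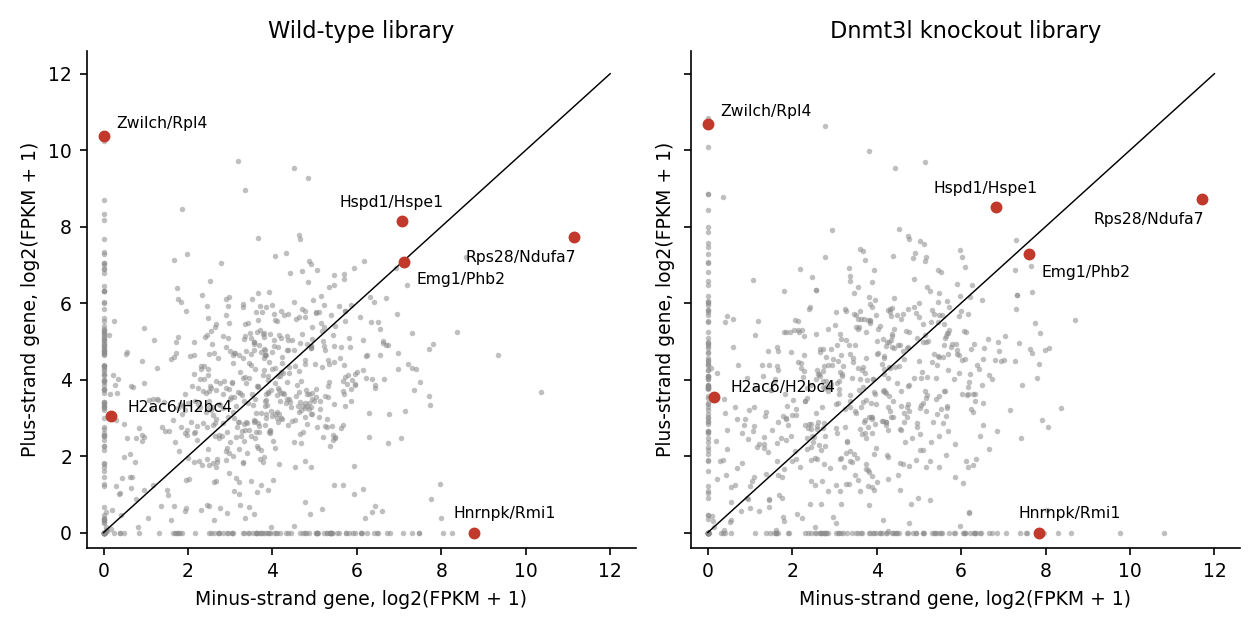
Each point is 1 of 806 pairs, with the level of the minus-strand gene on the x axis and of the plus-strand gene on the y axis as log2(FPKM + 1), for the wild-type (left) and Dnmt3l knockout library (right); the line marks equal levels and 6 pairs are named. The points spread widely around the line (Spearman's rho 0.06 and 0.11), and those on the axes are pairs with a gene listed at 0, such as Zwilch and Rmi1.

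The 8 pairs with the highest levels of both partners, of genes with established names, joined housekeeping genes of protein synthesis, mitochondria and RNA. Rps28, a protein of the small cytoplasmic ribosomal subunit, was at 2252 FPKM (wild-type) and 3342 FPKM (knockout), and its partner Ndufa7, a subunit of respiratory complex I, was at 211 and 422 FPKM. The wild-type values of both lay above their upper bounds, 1099 and 149.9 FPKM, which were summed over NM_ transcripts like the levels. Hspd1, the chaperonin, was at 134 FPKM (wild-type) and 112 FPKM (knockout), and Hspe1, its lid-forming cochaperonin, was at 282 and 362 FPKM. Hspe1 was thus at least 2-fold higher than Hspd1 in both libraries.

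Nearly equal partners were found in Emg1/Phb2 and Klhdc3/Mea1. Emg1, an enzyme of ribosome assembly, was at 139 FPKM (wild-type) and 194 FPKM (knockout), and Phb2, a prohibitin of the inner mitochondrial membrane, was at 135 and 154 FPKM. Klhdc3, a kelch-domain protein, was at 121 and 156 FPKM, and Mea1, male-enhanced antigen 1, was at 120 and 200.6 FPKM. In both of these pairs the partners lay within 2-fold of each other in each library. The other high pairs were less even. Fau, which encodes a ubiquitin-like protein fused to a ribosomal protein, was at 615 and 820 FPKM beside the mitochondrial ribosomal protein gene Mrpl49 at 27.6 and 34.5 FPKM. Uqcrh of respiratory complex III was at 331 and 415 FPKM beside Lrrc41 at 37.0 and 46.5 FPKM, and Ndufa2 of complex I was at 145 and 203 FPKM beside Ik at 88.0 and 77.0 FPKM. Hnrnpa2b1, an RNA-binding protein, was at 386 FPKM (wild-type) and 200.9 FPKM (knockout) beside the heterochromatin protein gene Cbx3 at 148 and 124 FPKM, but Hnrnpa2b1 was at 549 FPKM in the knockout library once assembled models were added.

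Of the textbook head-to-head pairs searched by name, 11 were found. Ppat/Paics and Surf1/Surf2 were not, since in the files their most upstream starts overlapped by 167 and 109 bp, and Trp53/Wrap53 and Col4a5/Col4a6 were not, since theirs lay 1035 and 1343 bp apart. Mcm4, a subunit of the replicative helicase, was at 51.3 FPKM (wild-type) and 45.3 FPKM (knockout). Its partner Prkdc, the catalytic subunit of the DNA-dependent protein kinase, was at 15.8 FPKM (wild-type) and listed at 0 (knockout), where assembled models put it at 48.7 FPKM. Gart, an enzyme of purine synthesis, was at 46.8 and 37.7 FPKM beside the splicing protein gene Son at 59.5 and 44.6 FPKM. Mrps12 of the mitochondrial ribosome was at 47.3 and 68.4 FPKM beside Sars2, the mitochondrial seryl-tRNA synthetase, at 22.6 and 36.6 FPKM. Both Mrps12 and Sars2 were thus higher in the knockout library, by 0.52 and 0.67 on the log2(FPKM + 1) scale, each less than 2-fold.

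Assembled models changed the picture of several of these pairs. Brca1, of homologous recombination, was at 18.2 FPKM (wild-type) and 3.46 FPKM (knockout) from NM_ transcripts, but at 18.2 and 23.8 FPKM with assembled models, beside the autophagy receptor Nbr1 at 50.5 and 36.9 FPKM. Atm, the kinase that signals DNA breaks, was at 9.36 and 1.23 FPKM from NM_ transcripts and at 19.3 and 19.7 FPKM with models. Its partner Npat, a coactivator of histone genes, was at 13.9 and 3.68 FPKM, and at 13.9 and 8.90 FPKM with models. Col4a1 was at 102 and 38.6 FPKM, and at 102 and 120 FPKM with models, and its partner Col4a2 was at 69.2 and 55.7 FPKM, and at 69.2 and 213 FPKM with models. Col4a3, another basement membrane collagen, was at 9.10 FPKM (wild-type) and listed at 0 (knockout), or at 9.10 and 7.39 FPKM with models. Its partner Col4a4 was listed at 0 in both libraries, with 18.2 and 14.1 FPKM on models. For Brca1, Atm and Col4a1 the lower knockout level of the NM_ transcripts was not seen in the sum with models.

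The immune pair Psmb9/Tap1 was low. Psmb9, an immunoproteasome subunit, was at 5.47 FPKM (wild-type) and 12.3 FPKM (knockout), or at 6.96 and 12.3 FPKM with models. Its log2 ratio was 1.04 from NM_ transcripts and 0.74 with models. Tap1, a peptide transporter of antigen presentation, was at 2.77 and 2.15 FPKM, or at 2.77 and 7.83 FPKM with models. Psmb9 is expressed by leukocytes among other cells, and summed macrophage and leukocyte markers stood at 397 and 816 FPKM in the 2 libraries. The part of such cells in this difference was not tested. In bulk RNA, fewer cells of a type and less RNA per cell cannot be told apart.

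Of 93 pairs, 1 gene was at 10 FPKM or more and the other under 1 FPKM in both libraries, and the low gene of 35 of them reached 1 FPKM with assembled models in at least 1 library. In the strongest, the low partner was listed at 0. Rpl4 of the large ribosomal subunit was at 1324 FPKM (wild-type) and 1638 FPKM (knockout), beside Zwilch, a kinetochore protein, at 0 in both with upper bounds of 0.0474 and 0.0430 FPKM. Rpl12 was at 1280 and 1828 FPKM beside the ubiquitin ligase gene Lrsam1 at 0 in both. Hnrnpk, an RNA-binding protein, was at 437 and 229.5 FPKM, or 437 and 363 FPKM with models, beside Rmi1, of the BLM helicase complex, at 0 in both. The G protein subunit gene Gng5 was at 418 and 458 FPKM beside Spata1 at 0 in both, and Ndufb9 of complex I was at 287 and 347 FPKM beside Tatdn1 at 0 in both. Mdh2, malate dehydrogenase, at 323 and 438 FPKM, stood beside Styxl1 at 0 and 0.273 FPKM.

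Among head-to-head pairs exact zeros were commoner beside strong partners than beside partners at 1 to 10 FPKM. In the wild-type library 24 of 83 genes (28.9%) with a partner at 100 FPKM or more were listed at 0, against 51 of 482 (10.6%) with a partner at 1 to 10 FPKM. In the knockout library the shares were 26.7% and 11.5%. With assembled models added, 23 and 24 of these genes beside strong partners were still at 0. In tail-to-tail neighbours the same shares were 21.0% and 17.3% for wild-type, and 16 of 80 genes and 12.9% for the knockout. In same-strand neighbours they were 13.5% and 17.5% for wild-type, where the order was the opposite, and 27.7% and 14.0% for the knockout. In the more distant head-to-head neighbours they were 17.6% and 13.2% (wild-type) and 18.1% and 17.3% (knockout), and zeros there were most frequent beside partners under 1 FPKM, at 31.8% and 27.7%. With assembled models Zwilch and Rmi1 were still at 0 in both libraries. A value of exactly 0 in these files can be a failed estimate, so a gene is described here as listed at 0. Whether any of the pattern comes from the estimation was not tested.

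The 14 gene lists differed in how many of their genes stood in head-to-head pairs, against 7.71% of all NM_ genes. Of the replication-dependent histone genes 30 of 73 (41.1%) were in a pair, of the mitochondrial ribosome, respiratory chain, import and chaperonin genes 58 of 206 (28.2%), of the splicing genes 18 of 66 (27.3%), and of the DNA replication and repair genes 35 of 131 (26.7%). The cell cycle list had 17 of 125 (13.6%), the ribosomal proteins 11 of 88 (12.5%) and the heat shock proteins 9 of 72 (12.5%). At the lower end stood the zinc finger protein genes with 27 of 458 (5.90%), nucleotide synthesis with 1 of 22 (4.55%) and the germ cell genes with 4 of 125 (3.20%). The remaining lists, ubiquitin and proteasome, imprinted genes, collagens and antigen processing, lay between 6.52% and 10.3%.

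All 16 histone pairs joined 2 histone genes, most of them an H2A and an H2B gene. Their messages normally carry no poly(A) tail, and these libraries were selected for poly(A). The median level was 0.577 FPKM (wild-type) and 0.740 FPKM (knockout). H2bc4 was the highest at 7.24 and 10.8 FPKM, beside H2ac6 at 0.133 and 0.102 FPKM. The windows of 23 histone genes held a CCAAT box in 100.0%, a TATA box in 60.9% and the E2F motif TTTCGCGC in 34.8%, against 43.2%, 3.92% and 1.20% in the other paired genes. The histone genes are near-identical copies, and 1 name can cover several loci in the files, so their single values are uncertain.

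Of the 58 mitochondrial genes 55 were compared, and the median log2 ratio of knockout to wild-type was 0.44, against 0.16 over all 11971 NM_ genes that reached 1 FPKM in a library. There were 5 at least 2-fold higher and 0 at least 2-fold lower, where 11.4% of all NM_ genes compared were higher and 11.4% lower, so the higher count was near the background. Above the median gene lay 42 of 55. Their levels were high, at a median of 39.9 FPKM (wild-type) and 56.6 FPKM (knockout), while their partners outside the list stood at 11.5 and 13.9 FPKM. Across paired genes Spearman's rho between transcript length and log2 ratio was -0.44. The part of length in the ratios of this list was not tested. Their windows held the ETS motif in 24.5%, the NRF1 motif in 12.2% and the YY1 motif in 14.3%.

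Of the DNA replication and repair genes 33 of 35 were compared, with 3 at least 2-fold higher, 7 at least 2-fold lower and a median log2 ratio of -0.03, beside the same background of 11.4% in each direction. Lower calls in this list include genes that were not lower with assembled models: the log2 ratio of Brca1 was -2.10 from NM_ transcripts and 0.37 with models, that of Atm -2.22 and 0.02, and that of Prkdc -4.07 and 1.56. Xpc, which recognises damage in nucleotide excision repair, was at 28.1 FPKM (wild-type) and 31.6 FPKM (knockout), beside the splicing gene Lsm3 at 135 and 196 FPKM. The flap endonuclease gene Fen1 was at 19.1 and 22.1 FPKM beside Tmem258 at 156 and 246 FPKM, and the checkpoint gene Rad17 at 24.2 and 25.9 FPKM beside Taf9 at 202 and 214 FPKM. In each of these 3 pairs the repair gene was the lower partner in both libraries. In the other high pair of the list it was not: Poldip2, a protein that binds DNA polymerase delta, was at 37.8 and 50.3 FPKM beside Tmem199 at 34.96 and 43.8 FPKM. All 10 paired ribosomal protein genes compared lay above the median gene and none differed 2-fold or more, with a median level of 834 FPKM (wild-type) and 1091 FPKM (knockout). Their partners were at 1 FPKM or more in 7 of 11 pairs (wild-type) and 4 of 11 (knockout). Vps52, of vesicle tethering, beside Rps18, was at 11.7 FPKM (wild-type) and listed at 0 (knockout), and Med22 of the Mediator complex, beside Rpl7a, was at 21.95 FPKM and 0.

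The 4 paired germ cell genes were all expressed. Ddx25, a testicular RNA helicase, was at 50.9 FPKM (wild-type) and 70.2 FPKM (knockout) beside the pseudouridine synthase gene Pus3 at 11.4 and 12.9 FPKM. Tex14, of the intercellular bridges, was at 45.8 and 27.5 FPKM, or 45.8 and 83.0 FPKM with models, beside the recombination gene Rad51c at 15.7 and 20.3 FPKM. The meiotic cohesin gene Stag3 was at 62.0 and 46.5 FPKM, or 62.0 and 83.0 FPKM with models, beside Gpc2 at 8.85 and 12.8 FPKM. Smc1b, another meiotic cohesin gene, was at 35.4 and 12.8 FPKM, or 35.4 and 51.9 FPKM with models, beside Ribc2 at 0.534 and 1.32 FPKM. In Tex14, Stag3 and Smc1b the NM_ value was lower in the knockout library and the sum with models was higher.

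Both imprinted pairs joined genes expressed from the paternal allele in most tissues. Sgce, epsilon-sarcoglycan, was at 9.52 FPKM (wild-type) and 15.2 FPKM (knockout), and Peg10, a retrotransposon-derived gene, was at 3.24 and 1.51 FPKM, or 6.39 and 4.42 FPKM with models. Peg3, a zinc finger gene, was listed at 0 in both libraries from NM_ transcripts, with 21.6 FPKM (wild-type) and 4.13 FPKM (knockout) on assembled models. Its partner Usp29 was at 0.192 and 0 FPKM. With models, the log2 ratio of Peg3 was -2.14 on the log2(FPKM + 1) scale, while Sgce and Peg10 each differed by less than 2-fold.

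Knockout and wild-type libraries were compared for 1373 paired genes that reached 1 FPKM in a library, as log2((knockout FPKM + 1)/(wild-type FPKM + 1)). The median was 0.13, against 0.16 over all NM_ genes compared. At least 2-fold higher were 145 paired genes (10.6%), against 11.4% of all NM_ genes compared, and at least 2-fold lower were 160 (11.7%), against 11.4%. Relative to the median gene the counts were 113 higher and 185 lower, against 8.41% and 13.5% of all NM_ genes. With assembled models 112 of 1458 paired genes were at least 2-fold higher and 56 at least 2-fold lower, against 7.33% and 3.3%. On each of these measures the paired genes stood near the background of all genes.

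Partners rarely differed together, here or in the other classes of neighbours. Of 599 pairs with both genes compared, both partners were at least 2-fold higher in the knockout library in 8, both at least 2-fold lower in 11, and the partners differed at least 2-fold in opposite directions in 14. In tail-to-tail neighbours these counts were 12, 5 and 6 of 366. They were 10, 2 and 6 of 266 in same-strand and 7, 2 and 8 of 395 in more distant head-to-head neighbours. Of the 599 pairs, only 1 partner passed 2-fold in 205, and neither did in 361. Both partners lay on the same side of the median gene in 325 pairs (54.3%), against 56.3% of tail-to-tail, 58.3% of same-strand and 54.9% of more distant head-to-head neighbours. Both were above it in 149 of the 325 and not above it in 176. In the other classes, in the same order, these counts were 133 and 73, 119 and 36, and 139 and 78. The median log2 ratios of their genes were higher, at 0.28, 0.35 and 0.27, so the same-side shares are not directly comparable between classes. Spearman's rho between the log2 ratios of partners was 0.14 over the 599 pairs, against 0.12, 0.12 and 0.10 in these classes, and Pearson's r was 0.04. All ratios rest on the same 2 libraries.

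**Figure D5:**
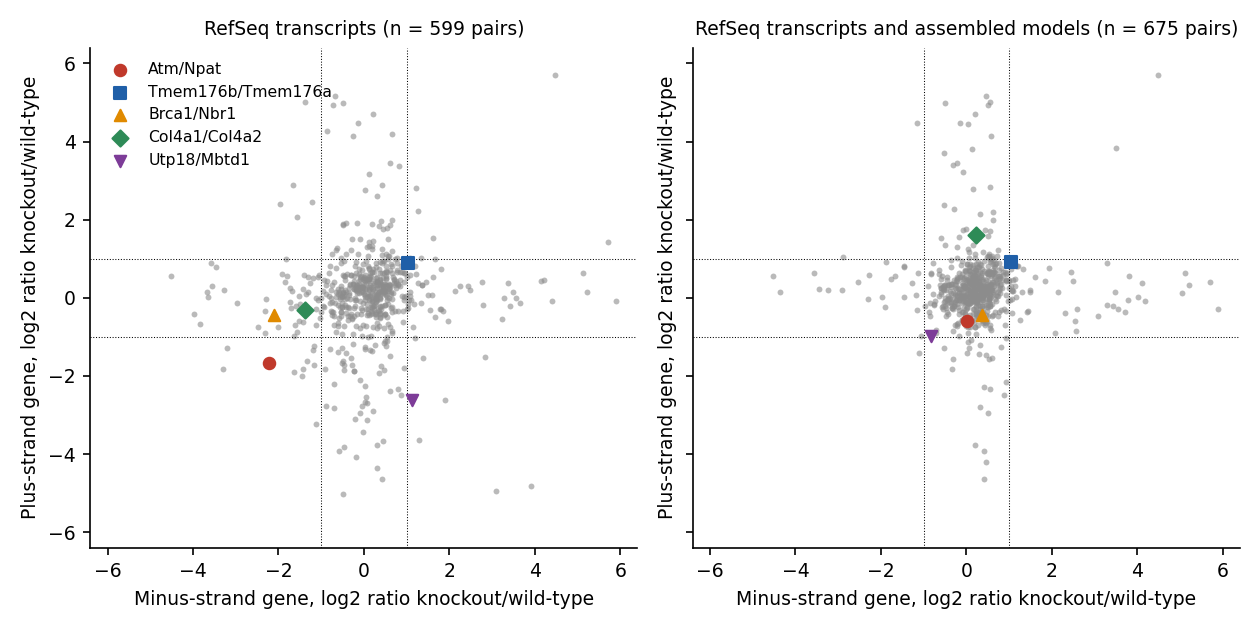
Each point is a pair, with the log2 ratio of knockout to wild-type (FPKM + 1) of the minus-strand gene on the x axis and of the plus-strand gene on the y axis, from RefSeq NM_ transcripts (left, 599 pairs) and with assembled models (right, 675 pairs). Dotted lines mark 2-fold. Points past 2-fold lie mostly along the axes, where 1 partner differs, and the marked Atm/Npat, Brca1/Nbr1 and Utp18/Mbtd1 move inside the lines with assembled models, while Col4a2 moves past 2-fold higher.

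Few of the pairs that differed together did so with assembled models. Of the 8 pairs with both partners at least 2-fold higher, 5 had a gene at 0 in 1 library, and 1 was still at least 2-fold higher for both partners with models, Stk19/Dxo, with Stk19 at 0 and 21.3 FPKM and Dxo at 0 and 50.9 FPKM. Of the 11 pairs with both partners at least 2-fold lower, 0 were so with models. Of the 14 pairs with opposite differences, 13 had a gene at 0 in 1 library, and 0 stayed past 2-fold for both partners in those directions with models.

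Among named pairs with both genes above 0 in both libraries and at 2 FPKM or more in at least 1, those whose partners were both furthest above the median gene included Bloc1s3/Trappc6a and Gemin4/Dbil5. The log2 ratios of Bloc1s3 and Trappc6a were 1.61 and 1.52 from NM_ transcripts, and 0.66 and 0.78 with models. Those of Gemin4 and Dbil5 were 1.34 and 1.01 from NM_ transcripts, and -0.22 and 1.01 with models. Tmem176b was at 29.0 and 60.6 FPKM and Tmem176a at 8.80 and 17.0 FPKM, and with models at 29.0 and 60.6 FPKM and at 11.1 and 21.7 FPKM, so the difference of this pair was about the same with models. Tmem176a and Tmem176b are expressed by myeloid cells among others, and the part of the higher macrophage markers in this difference was not tested. Prdx5, a peroxiredoxin, was at 83.9 and 153 FPKM beside Trmt112, a methyltransferase activator, at 64.2 and 115 FPKM.

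Furthest below the median gene with both partners were Atm/Npat, Polk/Cert1 and Pcid2/Cul4a. Polk, a translesion polymerase, was at 5.52 FPKM (wild-type) and 1.10 FPKM (knockout), or 5.52 and 5.36 FPKM with models, and the ceramide transfer protein gene Cert1 was at 22.7 and 5.31 FPKM, or 22.7 and 16.9 FPKM with models. Pcid2, of messenger RNA export, was at 31.6 and 11.1 FPKM, or 31.6 and 43.4 FPKM with models, and Cul4a, a scaffold of ubiquitin ligases, was at 52.1 and 12.4 FPKM, or 52.1 and 33.6 FPKM with models. Tmem68/Tgs1, Mastl/Yme1l1 and Vezt/Fgd6 followed. In none of these 6 pairs were both partners 2-fold lower with models.

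Among named pairs with both genes above 0 in both libraries, opposite differences were widest in Utp18/Mbtd1, where Utp18, of ribosome assembly, was at 10.8 FPKM (wild-type) and 24.7 FPKM (knockout) and Mbtd1, a chromatin reader, at 30.8 and 4.15 FPKM. With models both were lower in the knockout library, Utp18 at 44.7 and 24.7 FPKM and Mbtd1 at 30.8 and 15.1 FPKM. Ruvbl2, an ATPase of chromatin remodelling, was at 13.5 and 50.9 FPKM, or 43.3 and 50.9 FPKM with models. Its partner, the glycogen synthase gene Gys1, was at 6.92 and 5.29 FPKM, or 6.92 and 11.9 FPKM with models. With models both Ruvbl2 and Gys1 were thus higher in the knockout library. Prune1 was at 29.8 and 7.78 FPKM, or 29.8 and 34.6 FPKM with models, beside Mindy1 at 11.5 and 17.4 FPKM.

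A further group of paired genes was listed at 0 in 1 library only. In the knockout library 38 of the 1604 paired genes were at 0 with 5 FPKM or more in the wild-type. Of these, 28 reached 1 FPKM on assembled models. Over all 20806 NM_ genes the counts were 274 and 222. In the wild-type library 41 of the 1604 paired genes were at 0 with 5 FPKM or more in the knockout. Of these, 10 reached 1 FPKM on models. Over all 20806 NM_ genes the counts were 221 and 108. Ints7, of the Integrator complex, was at 31.5 FPKM (wild-type) and listed at 0 (knockout), and with models at 44.4 and 41.6 FPKM. Tubgcp4, of the gamma-tubulin ring, was at 35.0 FPKM and 0, and the models did not change this. Zswim7, which acts in homologous recombination, was listed at 0 for wild-type and at 58.7 FPKM for the knockout, with no model in the wild-type, while its partner Ttc19, 78 bp away, was at 25.7 and 24.4 FPKM. Thyn1 was at 0 and 62.9 FPKM beside Acad8 at 0 in both, and Bcl2l12 was at 0 and 51.2 FPKM. The partner of Bcl2l12, the interferon regulatory factor gene Irf3, was at 13.6 and 38.3 FPKM, or 28.8 and 38.3 FPKM with models.

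Assembled models also joined partners. A model with exons in both partners was present in 64 wild-type pairs (7.94%) and 41 knockout pairs (5.09%), and in 14 pairs in both. No strand-marking step is named in the protocol, so reads between close starts cannot be told apart by strand. Bounds, like the FPKM, were summed over the NM_ transcripts of a gene. Among paired genes at 1 FPKM or more, the FPKM lay outside these bounds for 69 of 1283 wild-type values (5.38%) and 102 of 1289 knockout values (7.91%). Over all NM_ genes at that level the shares were 2.93% and 4.09%.

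Transcript length moved with the comparison. Spearman's rho between the longest NM_ transcript and the log2 ratio was -0.44 across 1373 paired genes and -0.39 across all 11971, so long genes tended to have lower values in the knockout library. Within pairs, the longer partner had the lower ratio in 395 of 599 (65.9%). Markers of other cell types also differed: Sertoli cell markers summed to 439 FPKM (wild-type) and 1032 FPKM (knockout), with 8 of 10 above the median gene, Leydig cell markers to 59.1 and 126 FPKM, and macrophage and leukocyte markers to 397 and 816 FPKM, with 7 of 9 above it. Germ cell markers summed to 686 and 563 FPKM, with 4 of 10 above it. Listed at 0 were Zbtb16, Wt1 and Cd68 in the knockout library, Rhox5 in the wild-type library and Star in both. Peritubular and stromal markers summed to 439 and 643 FPKM, endothelial markers to 50.8 and 80.4 FPKM, and erythroid markers to 10.7 and 24.96 FPKM, with the globin genes Hba-a2 and Hbb-bt at 0 in both. None of these markers was in a head-to-head pair, and their part in the results on the pairs was not tested.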

How the data were processed

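Poly(A) RNA of 1 wild-type and 1 Dnmt3l knockout SPC library was sequenced as paired-end reads of 100 nt, per the labels' protocols, and each library was grouped by its genotype label. Per the submitters' processing notes, which give no settings, CASAVA 1.9, TopHat2 2.0.8 and Cufflinks 2.1.1 were used with build mm10. A deposited file lists transcripts with an FPKM, its bounds and a coverage, all computed by the authors. It holds 26606 RefSeq NM_ transcripts, those at 0 included, and models assembled from that library. Depth is unknown, since counts are not given. Because the FPKM stands in a text attribute, it was read as other text per the file headers.

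Transcripts took gene symbols by RefSeq accession (26143), through GENCODE M21 links (115) or by exon overlap (341), and 7 had none. FPKM and its bounds were summed per gene over NM_ transcripts. For a gene with several transcripts the bounds are thus sums and not a deposited interval. In the sums with models, a model of at least 300 nt went whole to the gene on its strand that shared the most exon bases with it. No smallest share was set, except 0.5 for a model with no strand. Log2 ratios used a pseudocount of 1 FPKM, which understates changes of low genes, and genes at 1 FPKM or more in at least 1 library. Between partners 0.1 FPKM was added before the 10-fold comparison. Tail-to-tail and same-strand neighbours were found by the distance between gene spans. More distant head-to-head neighbours were found by their starts, with no other NM_ gene between them, a condition not set for the 806 pairs. Promoter windows matched 1361 paired genes by symbol.

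The members and gene lists were chosen with earlier results of these data known. Pairs named were the textbook pairs, up to 4 of each list and the 8 overall with the highest levels, the 8 most unequal pairs, the 6 with both partners furthest above, below or on opposite sides of the median gene, the 3 genes of each library at 5 FPKM or more and 0 in the other, and the 3 closest pairs. Stk19/Dxo was chosen after its values were seen. Alternatives were other pseudocounts, filters, scalings, fold limits, distances and start definitions, sums with models, and the coverage attribute. Pair finding and ratios were tested on simulated data. Python 3.11.15, numpy 2.4.6, pandas 2.3.3, scipy 1.17.1 and matplotlib 3.10.9 were used. A few named pairs are not reported here.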

Additional observations from a re-analysis of the deposited data

How the results depend on the processing

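No paired analysis was possible because there was 1 library per genotype. The window from 500 bases before the start was not run, since the sequences used hold 250. The median log2 ratio of paired genes, 0.13, was 0.14 and 0.10 with pseudocounts of 0.1 and 5 FPKM, 0.0585 with no filter, 0.22 with a filter of 10 FPKM, 0.22 with assembled models, and reversed to -0.0225 when centred on the median gene and to -0.008 with upper-quartile scaling. Counts of genes at least 2-fold higher and lower, 145 and 160, were 72 and 79 with a pseudocount of 5 FPKM, 88 and 78 with the filter of 10 FPKM, 74 and 90 for genes above 0 in both libraries, and 294 and 250 at 1.5-fold and 51 and 54 at 4-fold. With assembled models 56 were lower. The share of pairs with both partners on the same side was 61.1% with the filter of 10 FPKM and between 50.96% and 57.3% under the other alternatives. The rank correlation of partner ratios, 0.14, was 0.16 with a pseudocount of 5 FPKM, 0.0896 with no filter, 0.24 with the filter of 10 FPKM, 0.26 for genes above 0 in both libraries, 0.0693 with models, 0.11 with the medians of 20 length bins removed, and 0.13 for starts 1 to 300 bp apart.

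Both partners were at the level that counts as expressed in 68.6% and 69.2% of pairs (wild-type, knockout) at 0.5 FPKM, in 45.9% and 43.9% at 5 FPKM, and in 75.6% and 78.8% with models. Partners were 10-fold apart in 27.7% and 25.5% with models. The rank correlation of partner levels was 0.29 and 0.31 for genes above 0, 0.23 and 0.25 for genes at 1 FPKM or more (added after seeing the data), 0.019 and 0.0614 with models, and 0.0927 and 0.13 for starts 1 to 300 bp apart. The median CpG ratio was 0.875 for expressed genes. The number of pairs was 558 for starts 1 to 300 bp apart, 928 up to 2000 bp, 918 with overlaps of up to 1000 bp, 1077 with NR_ genes, and 806 by the start of the most abundant transcript, of which 787 were the same pairs. The cause of these changes was not tested. The models of each library are its own.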

Other observations

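With assembled models added, 2 pairs had both partners at least 2-fold higher in the knockout library (Stk19/Dxo, Tmem138/Cyb561a3), 1 had both at least 2-fold lower (Ankib1/Krit1) and 2 had opposite differences (Trip12/Fbxo36, Tcta/Rhoa). All pairs named here were chosen after their values were seen. Tmem138, a ciliary membrane protein, stood at 0 (wild-type) and 10.3 FPKM (knockout) with models, and its partner Cyb561a3 at 0 and 13.4 FPKM. Ankib1 stood at 15.5 and 6.66 FPKM with models and Krit1 at 16.9 and 5.75 FPKM, while from NM_ transcripts Krit1 was listed at 0 for wild-type and at 4.44 FPKM for the knockout. Mcm7, a helicase subunit, stood at 135 and 122 FPKM beside Ap4m1 at 0 and 21.4 FPKM.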
